A study of Mus musculus with 14 samples.

Results

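The shared progerin effect was the change in the aortic intima that progerin produced with the same sign and a similar size in 2 mouse models, a ubiquitous model and a model restricted to vascular smooth muscle cells (VSMC). It was measured as the mean of both effects, ubiquitous progerin minus wild-type control and VSMC progerin minus lamin C-only control, in 1 fit of all 14 libraries. Of 14269 genes with enough counts to be tested, 1112 (7.79%) formed the shared set. Membership asked for an adjusted p under 0.05 in the mean effect and in each model by the quasi-likelihood test of edgeR, adjusted after Benjamini and Hochberg, the same sign in both models, and a smaller effect of at least 0.7 of the larger on the log2 scale. Of these genes 597 (4.18% of those tested) were higher and 515 (3.61%) were lower in both models. Because measured values chose them, the values below describe these genes and are not a further test of them. Where a gene is given a pair of log2 fold changes, with or without ± SE, ubiquitous progerin comes first and VSMC progerin comes after it.

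RNA was taken from the intima, the inner coat of the artery that carries the endothelium, by passing lysis reagent through the lumen of the thoracic aorta. Every mouse was Apoe-/-, so all groups share the lack of apolipoprotein E that makes mice prone to atherosclerosis. The wild-type controls were Apoe-/-Lmna+/+ (4 libraries) and the ubiquitous progerin mice Apoe-/-LmnaG609G/G609G (3 libraries). The lamin C-only controls were Apoe-/-LmnaLCS/LCS (4 libraries), and the VSMC progerin mice were Apoe-/-LmnaLCS/LCS SM22Cre (3 libraries), with Cre driven by the SM22α promoter of a gene that smooth muscle expresses strongly. Each library was a pool of 12 to 14 mice of 1 genotype, and the sources used here give neither age nor sex. The 2 models therefore differ in the cells that make progerin and also in the lamins of their controls, and no library is shared between them.

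Progerin is a truncated form of prelamin A that keeps its lipid anchor and stays at the nuclear envelope, and it is the cause of Hutchinson-Gilford progeria. In that disease smooth muscle cells are lost from large arteries and atherosclerosis develops early. Atherosclerosis itself begins with the entry of monocytes into the intima, where they become macrophages and lipid-laden foam cells, secrete proteases and present antigen. In the ubiquitous model endothelial cells and leukocytes carry the Lmna change along with smooth muscle, whereas in the VSMC model Cre acts where the SM22α promoter is active.

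Some of the largest shared changes were in genes that lie side by side in the genome. Start site sequences are shown for the lead macrophage gene Itgam, for a run of metalloproteinase genes that share a short motif, and for a pair of collagen genes that share a promoter region. The windows run from 250 bases before to 50 bases after a start site in RefSeq, on build GRCm38.p6, 5′ to 3′ on the strand of the gene. Capitals mark GAGGAAG, a motif bound by the macrophage factor PU.1, in the window of Itgam, and TGANTCA, a motif bound by AP-1 factors such as Jun, in the windows of the metalloproteinase genes. Both strands were searched, and the letters of the motifs do not overlap each other in these windows. Among all 14231 windows of tested genes, 13.5% hold the PU.1 letters and 5.5% hold the AP-1 letters. Such a match is a description of the letters and does not show binding.
Itgam, chr7:128062390-128062689, plus strand: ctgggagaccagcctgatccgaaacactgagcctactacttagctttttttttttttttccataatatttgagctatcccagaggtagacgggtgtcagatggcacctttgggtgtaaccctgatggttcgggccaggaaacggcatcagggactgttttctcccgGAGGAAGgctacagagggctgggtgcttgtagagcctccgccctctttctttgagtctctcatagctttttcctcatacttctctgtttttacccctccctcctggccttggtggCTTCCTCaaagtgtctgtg
Mmp13, chr9:7272264-7272563, plus strand: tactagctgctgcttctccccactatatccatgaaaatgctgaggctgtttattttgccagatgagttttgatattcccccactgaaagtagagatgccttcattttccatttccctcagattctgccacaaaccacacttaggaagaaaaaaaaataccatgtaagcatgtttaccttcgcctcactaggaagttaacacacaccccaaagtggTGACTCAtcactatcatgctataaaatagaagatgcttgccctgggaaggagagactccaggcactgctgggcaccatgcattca
Mmp12, chr9:7347124-7347423, plus strand: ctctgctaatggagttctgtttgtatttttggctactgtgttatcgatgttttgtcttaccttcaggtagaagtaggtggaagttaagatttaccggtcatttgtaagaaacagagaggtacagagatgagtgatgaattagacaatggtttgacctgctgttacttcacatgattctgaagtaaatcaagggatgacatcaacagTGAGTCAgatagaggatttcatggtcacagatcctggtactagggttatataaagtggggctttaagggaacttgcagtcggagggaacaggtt
Mmp3, chr9:7445572-7445871, plus strand: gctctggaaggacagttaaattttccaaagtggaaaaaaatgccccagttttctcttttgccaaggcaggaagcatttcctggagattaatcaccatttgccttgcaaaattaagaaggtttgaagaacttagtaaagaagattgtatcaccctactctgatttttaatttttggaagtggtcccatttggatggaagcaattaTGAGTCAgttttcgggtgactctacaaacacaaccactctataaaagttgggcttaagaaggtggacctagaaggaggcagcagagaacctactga
The Itgam window holds GAGGAAG 84 bases before the start and on the other strand 31 bases after it. In the run of metalloproteinase genes the AP-1 letters lie 35 bases before the start of Mmp13, 44 before that of Mmp12 and 46 before that of Mmp3. The table lists a further Mmp12 start, whose window holds no match. The window below spans the start of Col4a4 and, with the 71 bases between both annotated gene starts in capitals, the start of its neighbour Col4a3 on the opposite strand.
Col4a4, chr1:82586800-82587099, minus strand: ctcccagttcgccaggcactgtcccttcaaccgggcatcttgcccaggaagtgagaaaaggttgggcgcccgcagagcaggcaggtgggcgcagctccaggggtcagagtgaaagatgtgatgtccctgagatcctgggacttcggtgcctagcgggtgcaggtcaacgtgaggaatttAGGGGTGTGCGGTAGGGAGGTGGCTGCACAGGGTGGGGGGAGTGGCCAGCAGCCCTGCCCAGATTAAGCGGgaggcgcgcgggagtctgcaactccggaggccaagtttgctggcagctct

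Library totals ran from 27169784 to 35692385 estimated counts. Markers of macrophages summed to 102.6 to 167.9 CPM (TMM-scaled counts relative to the library total) in the wild-type controls, 817.5 to 1281 CPM under ubiquitous progerin, 98.6 to 245.9 CPM in the lamin C-only controls and 688.7 to 830.9 CPM under VSMC progerin, and none of the 20 markers was at 0 in any library. Endothelial markers, which dominate an intimal preparation, summed to 34040 to 36550 CPM in the wild-type controls, 28430 to 29520 CPM under ubiquitous progerin, 32840 to 36020 CPM in the lamin C-only controls and 31090 to 32100 CPM under VSMC progerin. Fibroblast markers summed to 911.5 to 970.3 CPM under ubiquitous progerin, below their controls at 1320 to 1402, and to 3877 to 4609 CPM under VSMC progerin, above their controls at 1294 to 1622. Adipocyte markers reached 1455 to 2069 CPM under VSMC progerin against 212.9 to 1004 CPM in its controls, and 374.5 to 753 CPM under ubiquitous progerin against 224.2 to 321.6. Erythrocyte and platelet markers ranged from 491 to 8604 CPM under VSMC progerin and from 136 to 607.4 CPM in the other libraries. Mitochondrially encoded genes took 7.29% to 8.22% of the counts under ubiquitous progerin, 11.5% to 12.1% under VSMC progerin and 3.53% to 5.42% in the controls. The part of these shifts in the shared changes was not tested.

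Lmna, which encodes lamin A, lamin C and progerin, was not a shared gene. Its levels were 113, 121, 119 and 125 CPM in the wild-type controls, 121, 116 and 115 CPM under ubiquitous progerin, 131, 142, 126 and 129 CPM in the lamin C-only controls, and 256, 218 and 207 CPM under VSMC progerin. The VSMC progerin libraries lay above all others. The log2 fold changes were -0.02 ± 0.07 under ubiquitous progerin and 0.78 ± 0.07 under VSMC progerin, and counts per gene do not separate the transcripts. Apoe changed by -0.18 ± 0.09 and -0.32 ± 0.09 in that order, a mean effect of -0.25 ± 0.06 with an adjusted p of 0.0019 by the quasi-likelihood test of edgeR, adjusted after Benjamini and Hochberg.

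Across all genes the mean effect was called for 7350 genes (51.5% of those tested), 3296 higher (23.1%) and 4054 lower (28.4%), by the quasi-likelihood test of edgeR, adjusted after Benjamini and Hochberg. Of these 7350 genes 1112 (15.1%) were shared, 1245 (16.9%) had the same sign in both models but a smaller effect under 0.7 of the larger, 523 (7.12%) were called with opposite signs, 2769 (37.7%) were called in the ubiquitous model alone, 1414 (19.2%) in the VSMC model alone and 287 (3.9%) in neither. Genes called in a single model made up the larger part. Ubiquitous progerin gave 7784 calls (54.6%), with 3746 genes higher (26.3%) and 4038 lower (28.3%). VSMC progerin gave 5988 (42%), with 2705 higher (19%) and 3283 lower (23%). Genes higher in both numbered 1126, which is 30.1% of the genes higher under ubiquitous progerin and 41.6% of those higher under VSMC progerin. Genes lower in both numbered 1231, or 30.5% and 37.5%. Another 1519 genes were called in both models with opposite signs, 910 of them higher under ubiquitous progerin and lower under VSMC progerin. Over all genes tested the effects of both models had a Pearson r of 0.36 and a Spearman rho of 0.20, a description across genes, which are not independent and were fitted together.

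**Figure D1:**
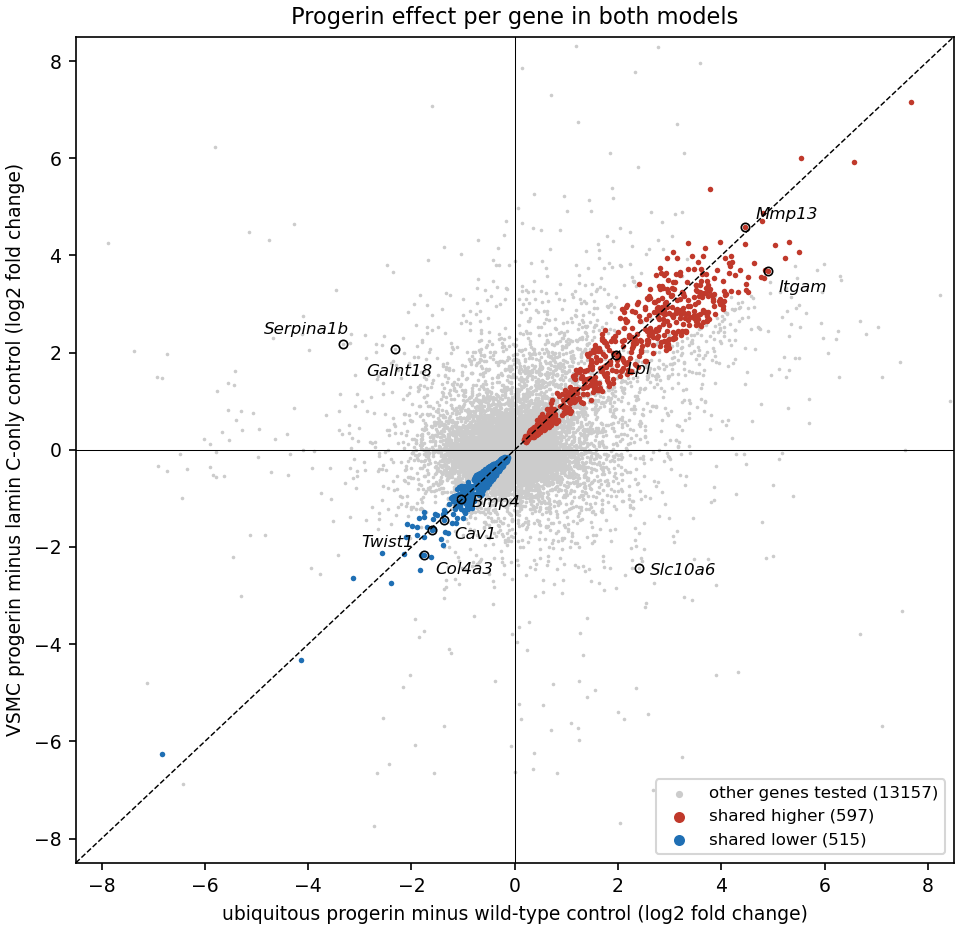
Log2 fold change of every tested gene under ubiquitous progerin (x axis) and under VSMC progerin (y axis), each against its own control, with the 597 shared higher genes in red, the 515 shared lower genes in blue and other genes in grey. The dashed line marks equal effects, 12 genes lie outside the axes, Itgam lies below the line at 4.90 and 3.67, and Slc10a6 is an example of opposite signs at 2.41 and -2.44.

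The 2 directions differed in size and in level. Shared higher genes were low in the controls, with a median of 1.86 CPM in the wild-type and 2.16 CPM in the lamin C-only libraries, and their median mean effect was 1.97 on the log2 scale. Shared lower genes were abundant, with medians of 52.4 and 52.3 CPM, and their median mean effect was -0.47, beside -0.02 over all genes tested. The smaller of both effects was between 2 and 3 for 181 higher and 4 lower genes and at least 3 for 95 higher and 2 lower genes. It was under 0.5 for 112 higher and 323 lower genes. In the controls 1.12% to 1.23% of all counts fell on the shared higher genes, against 1.97% to 2.22% in the progerin libraries. The shared lower genes took 6.22% to 6.37% of the counts in the controls and 3.95% to 4.21% in the progerin libraries. Of the 597 higher genes 514 passed the count filter on the control libraries alone. The other 83 passed it through the libraries in which they were high. All 1112 genes were annotated as protein coding and lay outside the mitochondrial genome.

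**Figure D2:**
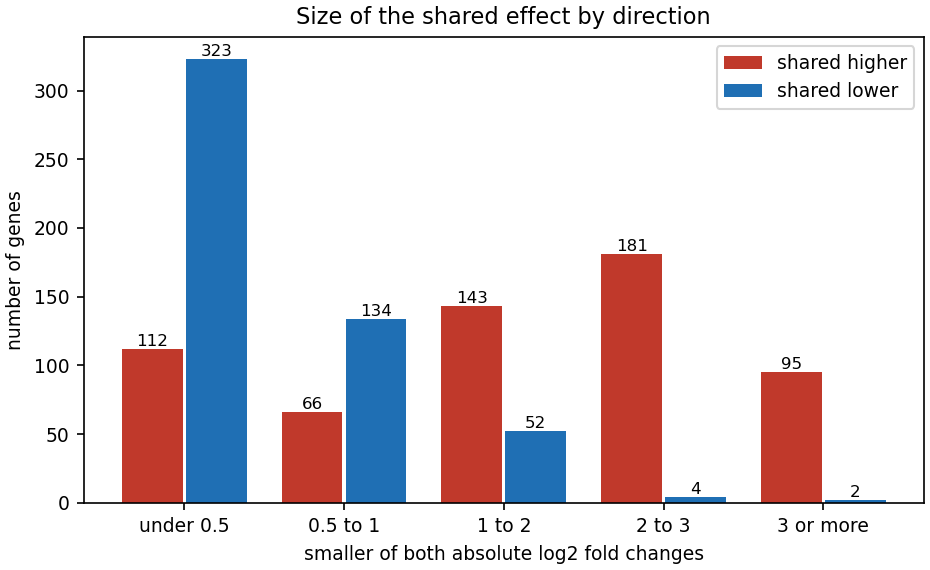
Number of shared genes (y axis) by the smaller of their absolute log2 fold changes in both models (x axis). The bin of 3 or more holds 95 higher and 2 lower genes, and the bin under 0.5 holds 112 higher and 323 lower genes.

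The difference between both effects had a median SE of 0.12 for the lower genes and 0.39 for the higher genes. Its 95% interval lay within ±0.5 on the log2 scale for 397 of 515 lower genes (77.1%) and for 136 of 597 higher genes (22.8%). The limit is fixed, while the lower genes had small effects, for which the ratio rule already keeps the difference small. These 2 shares therefore do not show in which direction the effects were more alike. The difference itself was called for 30 shared genes (2.7%), 19 higher and 11 lower, beside 44.2% of all genes tested. That share is low in part by construction, since the ratio rule uses the same effects. Levels of progerin and control libraries did not overlap in either model for 549 of the higher genes (92%) and 461 of the lower genes (89.5%), beside 28.7% of all genes tested, where the ubiquitous model by itself has 56.4% and the VSMC model by itself 45.5%. The larger effect was in the ubiquitous model for 364 higher genes (61%) and 279 lower genes (54.2%). Between the lamin C-only and the wild-type controls 25 genes (0.175%) were called, 2 of them shared.

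Macrophage genes were among the strongest shared rises. Of 20 macrophage identity genes 19 were higher in the mean effect, beside 23.1% of all genes tested, and 11 were shared, beside 4.18%. Their median effect was 2.79 under ubiquitous progerin and 2.71 under VSMC progerin. Itgam encodes CD11b, the integrin alpha chain of myeloid cells (ENSMUSG00000030786, chromosome 7, 128062640 to 128118491). It measured 2.52, 1.47, 1.46 and 1.27 CPM in the wild-type controls, 56.2, 46.5 and 47.6 CPM under ubiquitous progerin, 1.15, 1.18, 2.20 and 1.93 CPM in the lamin C-only controls, and 22.0, 20.9 and 19.0 CPM under VSMC progerin. All 6 progerin libraries exceeded all 8 controls, and the ubiquitous progerin libraries were the highest. The log2 fold changes were 4.90 ± 0.21 under ubiquitous progerin and 3.67 ± 0.20 under VSMC progerin, a mean of 4.29 ± 0.15. The summed macrophage markers given above were higher in both progerin groups, and their part in the result was not tested. In bulk RNA more macrophages and more RNA per macrophage cannot be told apart, and the same holds for every cell type below.

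Receptors that mark resident and recruited macrophages rose with Itgam. Csf1r, the receptor for the growth factor on which macrophages depend, ran at 4.85 to 7.69 CPM in the wild-type controls, 83.1 to 119 CPM under ubiquitous progerin, 5.88 to 9.16 CPM in the lamin C-only controls and 60.7 to 70.6 CPM under VSMC progerin. Adgre1, which encodes F4/80, ran at 1.301 to 3.11 CPM in the wild-type controls, 21.1 to 32.6 CPM under ubiquitous progerin, 1.84 to 2.82 CPM in the lamin C-only controls and 21.0 to 26.5 CPM under VSMC progerin. Cx3cr1 encodes the fractalkine receptor (ENSMUSG00000052336, chromosome 9, 119901616 to 120069879). Its levels were 2.20, 0.897, 1.92 and 0.73 CPM in the wild-type controls, 22.9, 11.8 and 15.2 CPM under ubiquitous progerin, 2.01, 1.71, 1.49 and 1.96 CPM in the lamin C-only controls, and 24.3, 29.7 and 24.5 CPM under VSMC progerin, with no overlap between progerin and control libraries. Here the VSMC progerin libraries were the highest, and the log2 fold changes were 3.54 ± 0.30 under ubiquitous progerin and 3.87 ± 0.30 under VSMC progerin. Mrc1, the mannose receptor of tissue macrophages, changed by 4.85 ± 0.25 and 3.70 ± 0.24. Spi1, which encodes PU.1, changed by 3.64 ± 0.22 and 2.62 ± 0.21. The named genes Itgam, Mrc1 and Spi1 rose more under ubiquitous progerin, with differences between both effects of 1.24, 1.15 and 1.02 on the log2 scale that were each called.

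Genes of myeloid signalling and of the leukocyte cytoskeleton followed. Of 16 Fc receptor and myeloid signalling genes 15 were higher in the mean effect, beside 23.1% of all genes, and 1 was lower, and 9 were shared, beside 4.18%, with a list median of 3.03. Fcgr2b, an inhibitory Fc receptor, rose by 3.43 and 4.00, Fcer1g, the common Fc receptor gamma chain, by 3.63 and 3.23, and Syk, the kinase that chain recruits, by 3.22 and 2.79. Ptprc, which encodes the pan-leukocyte antigen CD45, ran at 3.42 to 5.49 CPM in the wild-type controls, 28.9 to 47.2 CPM under ubiquitous progerin, 4.60 to 5.86 CPM in the lamin C-only controls and 35.2 to 44.4 CPM under VSMC progerin. Coro1a and Lcp1 encode actin-binding proteins of leukocytes. Coro1a measured 3.58, 4.42, 3.06 and 3.24 CPM in the wild-type controls, 71.5, 52.3 and 59.9 CPM under ubiquitous progerin, 5.56, 6.31, 4.74 and 5.55 CPM in the lamin C-only controls, and 50.5, 53.3 and 50.2 CPM under VSMC progerin, and its groups did not overlap. Lcp1 rose by 3.59 and 3.24, Cd52, a small leukocyte surface antigen, by 3.50 and 3.40, and Pld4, an exonuclease of lysosomes, by 4.51 and 3.24. Ncf1, a subunit of the NADPH oxidase by which phagocytes make superoxide, rose by 3.53 and 3.26.

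Antigen presentation and complement genes were shared to a large extent. All 8 MHC class II presentation genes were higher in the mean effect, beside 23.1% of all genes, and 6 were shared, beside 4.18%. H2-Eb1, the beta chain of an MHC class II molecule (ENSMUSG00000060586, chromosome 17, 34305867 to 34316674), measured 24.9, 33.6, 26.7 and 21.8 CPM in the wild-type controls, 215, 138 and 140.4 CPM under ubiquitous progerin, 31.2, 27.8, 59.2 and 42.9 CPM in the lamin C-only controls, and 226, 245 and 219 CPM under VSMC progerin. Every progerin library lay above every control, although lamin C-only control pool 3 was the highest control. H2-Eb1 rose by 2.62 ± 0.27 and 2.51 ± 0.26, and its neighbours H2-Aa and H2-Ab1 rose by 2.67 and 2.41 and by 2.63 and 2.39. Among 16 complement genes 13 were higher and 2 lower in the mean effect, where all genes have 23.1% and 28.4%. Of them 8 were shared higher and 1 shared lower, beside 4.18% and 3.61%. C1qa, a chain of the recognition molecule C1q, ran at 7.58 to 10.2 CPM in the wild-type controls, 148 to 204 CPM under ubiquitous progerin, 7.32 to 16.1 CPM in the lamin C-only controls and 111 to 122 CPM under VSMC progerin and rose by 4.32 and 3.25. C4b, a component downstream of C1, was the reverse case in size, with 13.4 to 15.2 CPM in the wild-type controls, 103 to 140.2 CPM under ubiquitous progerin, 11.4 to 25.1 CPM in the lamin C-only controls and 265 to 295 CPM under VSMC progerin and a larger rise under VSMC progerin (3.15 and 3.94). C3ar1, the receptor of a complement fragment, and Cfp, which stabilises the alternative pathway convertase, rose by 3.85 and 2.95 and by 1.64 and 1.38.

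Markers of other leukocytes were at far lower levels. Neutrophil and monocyte markers summed to 8.13 to 12.9 CPM in the controls, 25.7 to 34.5 CPM under ubiquitous progerin and 41.0 to 43.4 CPM under VSMC progerin. Of 10 tested 6 were higher in the mean effect, beside 23.1% of all genes, and 3 were shared, beside 4.18%. Up to 3 of the 10 were at 0 in at least 1 library of a group. Ccr2, the chemokine receptor of inflammatory monocytes, ran at 0.833 to 2.66 CPM in the wild-type controls, 7.34 to 15.1 CPM under ubiquitous progerin, 1.00 to 2.39 CPM in the lamin C-only controls and 13.7 to 16.5 CPM under VSMC progerin, and its neighbour Ccr1, named after its values were seen, rose by 4.79 and 4.71. S100a8 and Csf3r, genes of neutrophils, rose by 2.25 ± 0.55 and 1.59 ± 0.58 and by 2.05 ± 0.41 and 1.62 ± 0.40. Of 7 lymphocyte markers 2 were higher in the mean effect, beside 23.1% of all genes. Under ubiquitous progerin 2 were higher and 1 was lower, beside 26.3% and 28.3%. Under VSMC progerin 3 were higher and 0 lower, beside 19% and 23%. The list median was -0.01 under ubiquitous progerin and 1.52 under VSMC progerin. The single shared gene of them was Cd79b, a part of the B cell receptor, beside 4.18% shared higher over all genes. It was at 0 to 0.195 CPM in the wild-type controls, 1.22 to 1.53 CPM under ubiquitous progerin, 0 to 0.38 CPM in the lamin C-only controls and 0.968 to 1.56 CPM under VSMC progerin. Near the floor in the controls, it passed the count filter through the progerin libraries, in which it was high. Lymphocyte markers summed to no more than 14.7 CPM in any library.

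Lipid handling was shared in part. Of 15 foam cell and lysosomal genes 14 were higher in the mean effect, beside 23.1% of all genes. Under ubiquitous progerin 13 were called higher and under VSMC progerin 11, beside 26.3% and 19%. The genes that met the whole shared rule were 2, Lpl and Lipa, beside 4.18% shared higher over all genes. Lpl encodes lipoprotein lipase, which frees fatty acids from lipoproteins (ENSMUSG00000015568, chromosome 8, 68880491 to 68907448). It measured 60.3, 58.4, 71.6 and 72.0 CPM in the wild-type controls, 256, 275 and 235 CPM under ubiquitous progerin, 68.3, 80.0, 66.0 and 101 CPM in the lamin C-only controls, and 352, 282 and 276 CPM under VSMC progerin. Progerin and control libraries were apart in both models. The effects, 1.96 ± 0.14 and 1.94 ± 0.14, were nearly equal, with a 95% interval of the difference of -0.42 to 0.45. Lipa, the lysosomal lipase of cholesteryl esters, rose by 0.42 and 0.35, with overlapping libraries in the VSMC model only. Abcg1, which exports cholesterol to lipoprotein particles, ran at 54.6 to 66.5 CPM in the control libraries and 84.2 to 106 CPM in the progerin libraries and rose by 0.73 and 0.63. Srebf2, the regulator of cholesterol synthesis, changed by -0.27 and -0.35. Of 10 adipocyte markers 6 were higher in the mean effect, beside 23.1% of all genes. Retn was the single one shared, beside 4.18% shared higher over all genes, and its levels overlapped in the ubiquitous model only. It ran at 1.57 to 4.18 CPM in the wild-type controls, 4.16 to 15.1 CPM under ubiquitous progerin, 1.09 to 8.82 CPM in the lamin C-only controls and 10.2 to 19.3 CPM under VSMC progerin.

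Several matrix metalloproteinases, which cut collagen and elastin, rose in both models, Mmp13 among them. Of 25 metalloproteinase and inhibitor genes 16 were higher and 5 lower in the mean effect, beside 23.1% and 28.4% of all genes tested. Under ubiquitous progerin 10 were higher and 7 lower, beside 26.3% and 28.3% of all genes. Under VSMC progerin 19 were higher and 2 lower, beside 19% and 23%. The 6 shared genes, beside 4.18% shared higher over all genes, were Mmp13, Mmp12, Mmp3, Mmp14, Mmp19 and Adam19. Mmp13 encodes a collagenase (ENSMUSG00000050578, chromosome 9, 7272514 to 7283331). Its levels were 0.39, 0.577, 0.228 and 0.349 CPM in the wild-type controls, 10.7, 6.89 and 7.995 CPM under ubiquitous progerin, 0.587, 0.995, 1.14 and 1.01 CPM in the lamin C-only controls, and 26.7, 18.8 and 21.6 CPM under VSMC progerin. It was close to absent in the controls, and both progerin groups stood well above them. The log2 fold changes were 4.45 ± 0.27 under ubiquitous progerin and 4.58 ± 0.24 under VSMC progerin, with a 95% interval of the difference of -0.96 to 0.71. Mmp12, the macrophage elastase, was at 15.4, 12.1, 11.9 and 5.62 CPM in the wild-type controls, 112, 74.4 and 74.6 CPM under ubiquitous progerin, 8.52, 28.2, 22.2 and 7.51 CPM in the lamin C-only controls, and 182, 145 and 164 CPM under VSMC progerin, again with no overlap. Mmp3, stromelysin, was at 1.52 to 2.62 CPM in the wild-type controls, 4.81 to 7.05 CPM under ubiquitous progerin, 1.03 to 4.75 CPM in the lamin C-only controls and 4.37 to 9.68 CPM under VSMC progerin and overlapped with its controls in the VSMC model. The rises of Mmp12 and Mmp3 were 2.95 ± 0.46 and 3.30 ± 0.45 and 1.47 ± 0.38 and 1.36 ± 0.37, and all 3 genes lie in 1 run on chromosome 9 with the AP-1 letters printed above near their starts. Jun, an AP-1 subunit, was lower in both models. Mmp14, a membrane-bound activator of other metalloproteinases, ran at 31.6 to 42.2 CPM in the control libraries and 85.7 to 119.7 CPM in the progerin libraries and rose by 1.36 and 1.63. Adam19, a membrane protease, rose by 4.05 and 3.26.

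**Figure D3:**
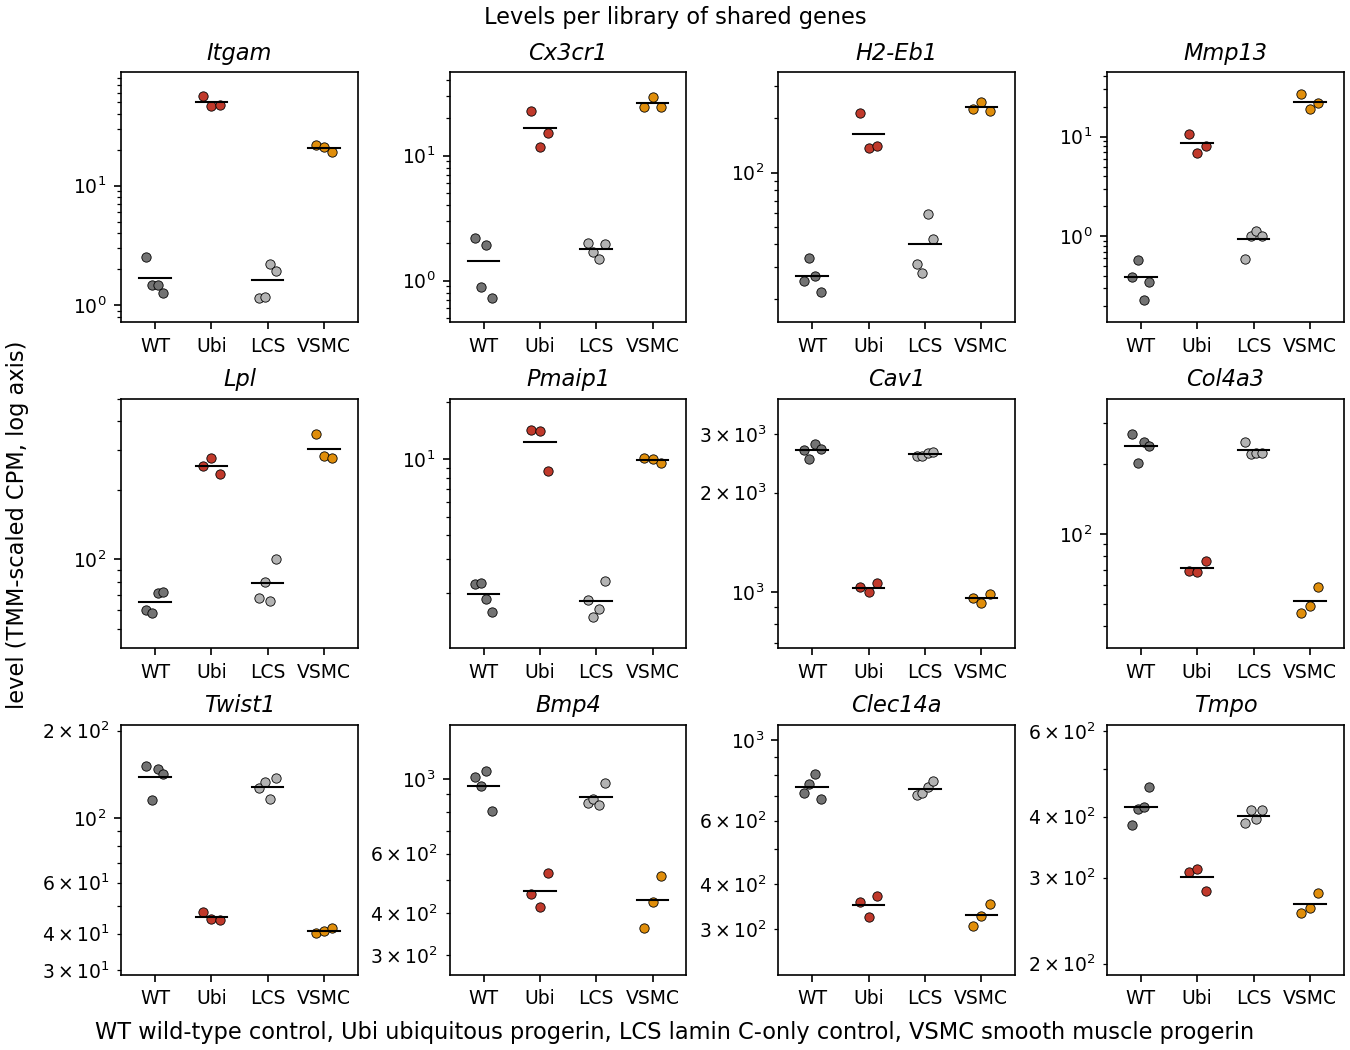
TMM-scaled CPM (log axis) of 12 shared genes in every library, with 1 point a library and a bar at the group mean, for wild-type control (WT, 4), ubiquitous progerin (Ubi, 3), lamin C-only control (LCS, 4) and VSMC progerin (VSMC, 3). In the panels from Itgam to Pmaip1 every progerin library lies above every control, and in the panels from Cav1 to Tmpo every progerin library lies below, as for Cav1 at 929 to 1064 CPM against 2523 to 2803 CPM.

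Genes tied to the change of endothelial cells towards a mesenchymal state, the process named in the study's title, split in direction. Of 22 such genes 12 were higher and 6 lower in the mean effect, against 23.1% and 28.4% of all genes. Of them 6 were shared higher and 2 shared lower, against 4.18% and 3.61%. The list median was -0.14 under ubiquitous progerin and 0.53 under VSMC progerin. Snai1 and Cdh2, a transcription factor and a cadherin of mesenchymal cells named after their values were seen, rose by 2.59 ± 0.57 and 2.36 ± 0.55 and by 2.44 ± 0.67 and 2.05 ± 0.61 but stayed low. Snai1 ran at 0.0919 to 0.726 CPM in the control libraries and 0.921 to 2.51 CPM in the progerin libraries. Cdh2 ran at 0.032 to 0.95 CPM and 0.489 to 2.48 CPM. Its groups were apart within each model, but lamin C-only control pool 4 (0.95 CPM) lay above ubiquitous progerin pool 3 (0.489 CPM). Tgfbr1, a receptor of TGF-beta, rose by 0.61 and 0.48. Twist1, by contrast, a transcription factor that drives mesenchymal programmes (ENSMUSG00000035799, chromosome 12, 33957671 to 33959829), measured 151, 116, 148 and 142 CPM in the wild-type controls, 47.6, 45.0 and 44.5 CPM under ubiquitous progerin, 126, 133, 116 and 137 CPM in the lamin C-only controls, and 40.1, 40.8 and 41.8 CPM under VSMC progerin. All progerin libraries lay far below all controls, and the log2 fold changes were -1.60 ± 0.08 under ubiquitous progerin and -1.65 ± 0.08 under VSMC progerin. Collagen and cross-linking genes had no shared member among 22 tested. Of them 14 were lower under ubiquitous progerin and 19 higher under VSMC progerin, beside 28.3% and 19% of all genes.

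Of 18 contractile genes of smooth muscle 2 were higher and 11 lower in the mean effect, beside 23.1% and 28.4% of all genes tested. Of them 3 were shared lower, beside 3.61%. Acta2, smooth muscle actin (ENSMUSG00000035783, chromosome 19, 34241090 to 34255590), measured 211, 318, 163 and 159 CPM in the wild-type controls, 87.5, 82.0 and 108 CPM under ubiquitous progerin, 203, 161, 131 and 194 CPM in the lamin C-only controls, and 86.1, 84.2 and 87.9 CPM under VSMC progerin. The levels did not overlap between progerin and control, although the controls spread widely. Acta2 changed by -1.20 ± 0.25 and -1.0 ± 0.25. Myl9, a myosin light chain, changed by -0.96 ± 0.31 and -0.85 ± 0.31, with overlapping libraries in the VSMC model only. Synpo2, an actin-bundling protein, changed by -0.95 ± 0.10 and -0.75 ± 0.10. Myh11, smooth muscle myosin, fell just outside the rule of similar size, at -1.32 and -1.88. The summed contractile markers lay within the range of the controls, at 1336 to 1368 CPM under ubiquitous progerin against 1122 to 1603, and at 1114 to 1202 CPM under VSMC progerin against 1042 to 1262.

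Cav1 was among the most abundant of the genes that fell in both models. Cav1 encodes caveolin 1, the coat protein of the membrane pits that are dense in endothelium (ENSMUSG00000007655, chromosome 6, 17306335 to 17341452), and is named after its values were seen. It measured 2701, 2523, 2803 and 2715 CPM in the wild-type controls, 1035, 999 and 1064 CPM under ubiquitous progerin, 2576, 2584, 2640 and 2656 CPM in the lamin C-only controls, and 959.8, 929 and 984 CPM under VSMC progerin. No library of either progerin group came near its controls, and the log2 fold changes were -1.38 ± 0.05 under ubiquitous progerin and -1.45 ± 0.05 under VSMC progerin, with a 95% interval of the difference of -0.08 to 0.22. Its neighbours Cav2, a partner caveolin, and Met, the receptor of hepatocyte growth factor, changed by -0.90 ± 0.08 and -0.75 ± 0.08 and by -0.90 ± 0.11 and -0.94 ± 0.11. Met was at 26.1 to 31.9 CPM in the control libraries and 13.2 to 16.8 CPM in the progerin libraries.

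A pair of basement membrane collagen genes was among the genes that fell the furthest. Col4a3 and Col4a4 encode 2 of the alpha chains of type IV collagen and start 71 bases apart in opposite directions. Col4a3 (ENSMUSG00000079465, chromosome 1, 82586921 to 82722059) measured 269.7, 202, 248 and 238 CPM in the wild-type controls, 69.3, 68.3 and 76.5 CPM under ubiquitous progerin, 249, 222, 224 and 224 CPM in the lamin C-only controls, and 45.5, 49.0 and 58.7 CPM under VSMC progerin. Col4a4 measured 433, 322, 405 and 409 CPM in the wild-type controls, 115, 105 and 116 CPM under ubiquitous progerin, 379, 361, 365 and 354 CPM in the lamin C-only controls, and 67.6, 73.2 and 104 CPM under VSMC progerin. Both genes were lowest under VSMC progerin, and neither overlapped its controls. Col4a3 changed by -1.75 ± 0.10 and -2.17 ± 0.10 and Col4a4 by -1.81 ± 0.13 and -2.16 ± 0.13, and for Col4a3 the difference of effects, 0.42, was called. Read pairs that span both starts cannot be assigned by position alone where strand was not used in counting, and no source used here states the strand setting.

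Other genes that fell in both models were of several kinds, signals and enzymes among them. Ptprz1, a receptor phosphatase, changed by -2.15 ± 0.27 and -2.15 ± 0.27. Ereg, a ligand of the EGF receptor, ran at 28.4 to 35.5 CPM in the wild-type controls, 9.04 to 9.63 CPM under ubiquitous progerin, 22.1 to 32.7 CPM in the lamin C-only controls and 4.00 to 6.96 CPM under VSMC progerin, with the larger fall under VSMC progerin (-1.84 and -2.48). Inhbb, a subunit of activin and inhibin, changed by -2.00 ± 0.28 and -1.57 ± 0.26, and Hdac9, a histone deacetylase that lies next to Twist1, by -1.90 ± 0.24 and -1.75 ± 0.24. Aldh3a1, an aldehyde dehydrogenase, changed by -1.42 and -1.83, Akap12, a scaffold protein of kinases, by -1.56 and -1.63, and Cdh26, a cadherin, by -1.39 and -1.95. Sned1, an extracellular matrix protein, ran at 87.1 to 129 CPM in the control libraries and 32.9 to 41.4 CPM in the progerin libraries, and Pxylp1, an enzyme of glycosaminoglycan synthesis, changed by -1.89 and -1.58. The controls for Akap12 differed by genotype, with 5.73 to 6.86 CPM in the wild-type and 16.6 to 37.1 CPM in the lamin C-only libraries. Pappa2, a protease of IGF-binding proteins named after its values were seen, fell the furthest in proportion among the genes named here, with 1.92 to 5.89 CPM in the control libraries and 0 to 0.562 CPM in the progerin libraries.

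Of 24 endothelial identity genes 5 were higher and 14 lower in the mean effect, beside 23.1% and 28.4% of all genes tested. Of these 24, 1 was shared lower, near the 3.61% of all genes, and none was shared higher. The difference of both effects was called for 23, beside 44.2% of all genes. The shared gene was Clec14a, a lectin-like protein of endothelial cells (ENSMUSG00000045930, chromosome 12, 58264720 to 58269290), at 716, 758, 809 and 686 CPM in the wild-type controls, 357, 324 and 371 CPM under ubiquitous progerin, 705, 714, 744 and 772 CPM in the lamin C-only controls, and 306, 326 and 352 CPM under VSMC progerin. Its progerin libraries all lay below its controls, and it changed by -1.08 ± 0.07 and -1.16 ± 0.07. Of 18 genes of NF-kappaB and adhesion 7 were higher and 7 lower in the mean effect, beside the same 23.1% and 28.4%. Selp encodes P-selectin, on which leukocytes roll. It was the single one shared, and 1 of 18 is near the 4.18% shared higher over all genes. It was higher, at 348 to 432 CPM in the control libraries and 531 to 588 CPM in the progerin libraries, with effects of 0.53 and 0.45.

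Single genes of growth factor and contact signalling were shared. Of 28 TGF-beta and BMP signalling genes 6 were higher and 11 lower in the mean effect, beside 23.1% and 28.4% of all genes tested, with 2 shared in each direction, beside 4.18% and 3.61%. Bmp4, a ligand made by endothelium (ENSMUSG00000021835, chromosome 14, 46383520 to 46390669), measured 1013, 951, 1055 and 801 CPM in the wild-type controls, 454, 416 and 527 CPM under ubiquitous progerin, 846, 869, 834 and 975 CPM in the lamin C-only controls, and 359, 431 and 516 CPM under VSMC progerin. The groups did not overlap, and the effects of -1.04 ± 0.12 and -1.02 ± 0.12 were nearly equal, with a 95% interval of the difference of -0.39 to 0.35. Bmpr2, the type II receptor of BMP ligands, changed by -0.70 ± 0.08 and -0.51 ± 0.08. Of 16 Notch pathway genes 3 were higher and 7 lower in the mean effect, beside the same 23.1% and 28.4%. The difference of both effects was called for 11, beside 44.2% of all genes. Nrarp, a feedback inhibitor induced by Notch, was the single one shared, and 1 of 16 is near the 3.61% shared lower over all genes. It ran at 146 to 184 CPM in the control libraries and 80.9 to 95.3 CPM in the progerin libraries and changed by -0.90 and -1.0. Of 17 YAP and TEAD genes 3 were higher and 10 lower in the mean effect, again against 23.1% and 28.4%. Ajuba, a scaffold that restrains the Hippo kinases, changed by -0.79 and -1.03, Yap1 and Wwtr1, the paired coactivators YAP and TAZ, changed by -0.27 ± 0.07 and -0.26 ± 0.07 and by -0.25 ± 0.05 and -0.21 ± 0.05, and Axl, a receptor kinase also found on macrophages, rose by 1.64 and 1.23.

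Immediate early genes, which respond within minutes to stimuli and to tissue handling, were shared in both directions. Of 16 tested 6 were higher and 5 lower in the mean effect, where all genes have 23.1% and 28.4%. Of them 3 were shared lower and 1 shared higher, beside 3.61% and 4.18%. Jun (ENSMUSG00000052684, chromosome 4, 95049034 to 95052222) measured 459, 473, 416 and 473 CPM in the wild-type controls, 184, 208 and 209.7 CPM under ubiquitous progerin, 392.4, 425, 409 and 414 CPM in the lamin C-only controls, and 189.7, 220.0 and 231 CPM under VSMC progerin. The 6 progerin libraries lay below the 8 controls, and the changes were -1.18 ± 0.07 and -0.94 ± 0.07. Myc, a growth-promoting factor, and Fosb, another AP-1 subunit, changed by -0.78 and -0.56 and by -1.86 and -1.40. Ier2 was slightly higher (0.34 and 0.27). Libraries of Fosb and Ier2 overlapped in the VSMC model only.

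Of 17 nuclear lamina genes 1 was higher and 11 were lower in the mean effect, beside 23.1% and 28.4% of all genes tested. Tmpo was the single shared gene, and 1 of 17 is near the 3.61% shared lower over all genes. Tmpo encodes the lamina-associated polypeptides that tie chromatin to the nuclear envelope (ENSMUSG00000019961, chromosome 10, 91147571 to 91181315). It measured 385, 415, 418 and 461 CPM in the wild-type controls, 308, 312 and 281 CPM under ubiquitous progerin, 388, 413, 395 and 412 CPM in the lamin C-only controls, and 254, 259 and 279.6 CPM under VSMC progerin, with no overlap, and changed by -0.48 ± 0.06 and -0.61 ± 0.06.

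Among 19 p53 target and growth arrest genes 10 were higher and 2 lower in the mean effect, beside 23.1% and 28.4% of all genes tested, and Pmaip1 and Btg2 were shared, beside 4.18% shared higher over all genes. Pmaip1 encodes Noxa, which promotes apoptosis (ENSMUSG00000024521, chromosome 18, 66458533 to 66465565). It was at 2.23, 2.24, 1.85 and 1.59 CPM in the wild-type controls, 14.2, 14.0 and 8.69 CPM under ubiquitous progerin, 1.84, 1.49, 1.65 and 2.30 CPM in the lamin C-only controls, and 10.1, 10.03 and 9.57 CPM under VSMC progerin, and the progerin libraries exceeded the controls in both models. The effects were 2.64 ± 0.21 and 2.44 ± 0.21. Btg2, an antiproliferative gene, ran at 51.7 to 70.3 CPM in the control libraries and 84.7 to 107 CPM in the progerin libraries and rose by 0.58 and 0.66. Of 18 endoplasmic reticulum stress genes 5 were higher and 3 lower in the mean effect, beside the same 23.1% and 28.4%. The shared genes among them, Asns and Sdf2l1, an enzyme of asparagine synthesis and a chaperone partner, rose by 2.07 and 1.64 and by 1.14 and 1.06. Of 22 cell cycle genes 12 were higher and 1 lower in the mean effect, again beside 23.1% and 28.4%. Ccnb1, cyclin B1, was the single one shared, and 1 of 22 is near the 4.18% shared higher over all genes. It rose by 1.56 ± 0.45 and 2.15 ± 0.41 from low levels. Its libraries overlapped in the ubiquitous model only. Irf7, a regulator of interferon genes, was the single shared gene of 22 in the interferon list, again near that 4.18%. That list had 16 members lower under ubiquitous progerin and 15 higher under VSMC progerin, beside 28.3% and 19% of all genes.

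Several lists held no shared gene, which for lists of this length is near the 7.79% shared of all genes tested. The 23 cytosolic ribosomal protein genes were all higher under ubiquitous progerin, and 12 were lower under VSMC progerin. Over all genes these shares were 26.3% and 23%. The difference of effects was called for all 23, for all 16 FoxO target genes, for 14 of 16 glucocorticoid target genes and for 11 of 16 core clock genes. It was called for 44.2% of all genes. All 13 mitochondrially encoded genes were higher in the mean effect, beside 23.1% of all genes, yet the difference was called for all 13. In total 80 shared genes stood on any of the lists, 63 higher and 17 lower.

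**Figure D4:**
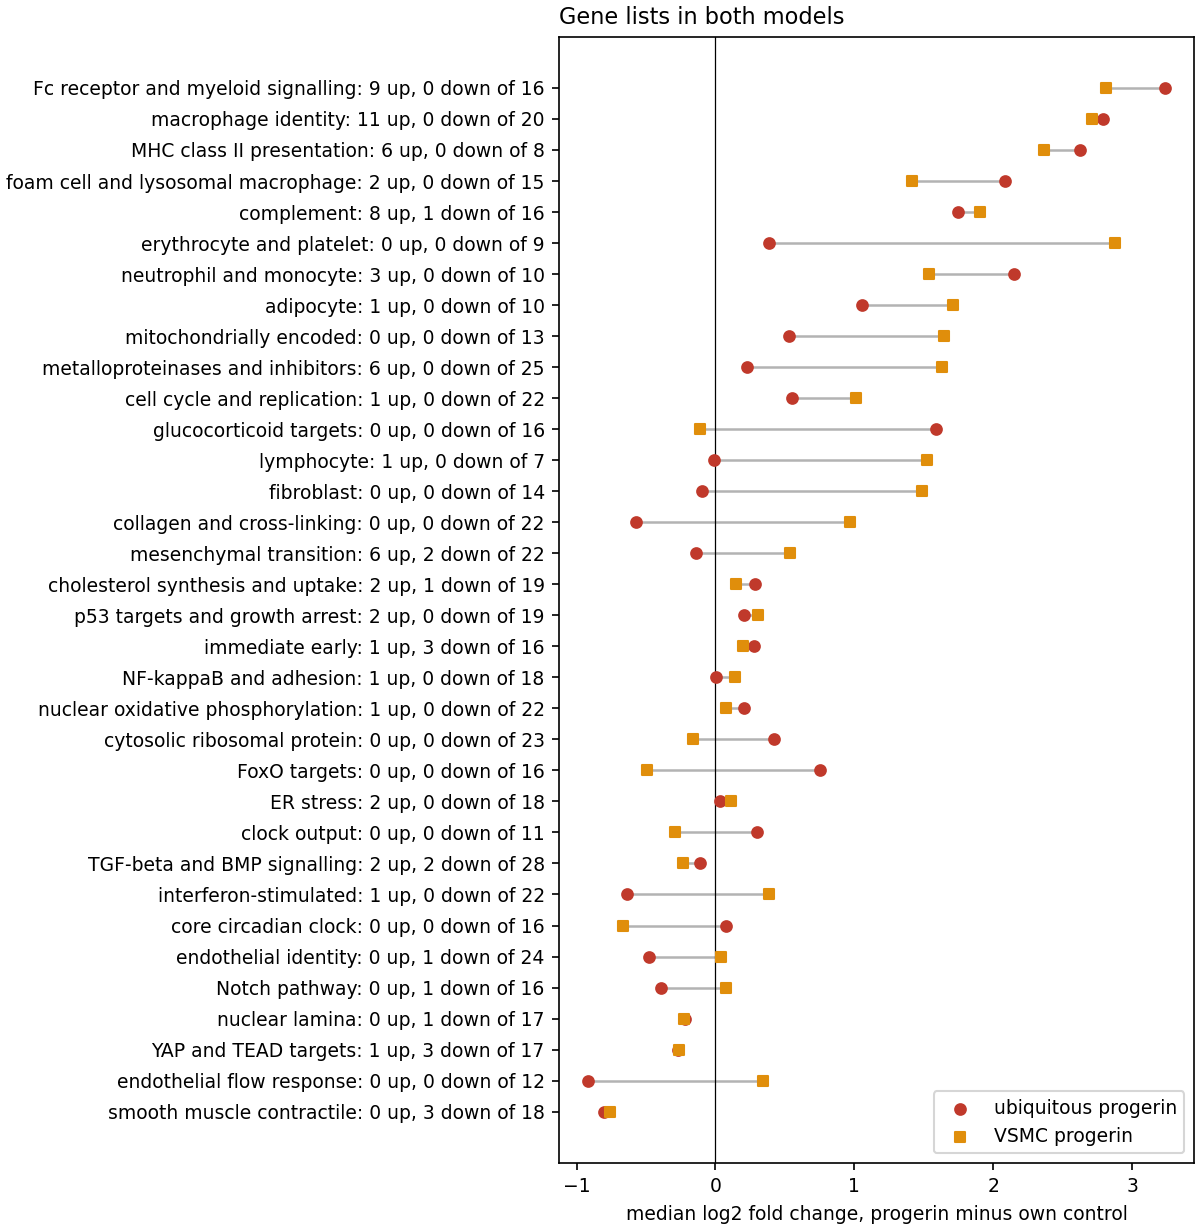
Median log2 fold change of the tested members of each gene list (x axis) under ubiquitous progerin (red circles) and VSMC progerin (orange squares), ordered by the median mean effect, with the number of shared genes higher (up) and lower (down) and of members tested beside each name. The macrophage identity medians are 2.79 and 2.71, and the collagen medians are -0.57 and 0.97.

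Some genes had nearly the same effect in both models. The closest matches among higher genes with a mean effect of at least 1 were Rgs10, a regulator of G protein signalling (2.36 ± 0.16 and 2.38 ± 0.16), Gas7 (2.28 ± 0.27 and 2.27 ± 0.27), Klhl35 (1.76 ± 0.23 and 1.75 ± 0.23), Hpgd, which degrades prostaglandins (1.44 ± 0.22 and 1.46 ± 0.22), and Lpl. Rgs10 ran at 2.31 to 4.08 CPM in the wild-type controls, 17.3 to 18.6 CPM under ubiquitous progerin, 3.28 to 4.01 CPM in the lamin C-only controls and 17.2 to 20.2 CPM under VSMC progerin, so the 2 progerin groups matched in level as well as in effect. The closest lower genes were Ptprz1, Adamtsl3 (-1.14 ± 0.16 and -1.14 ± 0.17), Rasd2, a small G protein (-1.09 ± 0.11 and -1.08 ± 0.11), Rgs11 (-1.06 ± 0.16 and -1.05 ± 0.16) and Bmp4. Adamtsl3 reached its equal effects from unequal control levels, with 14.6 to 23.1 CPM in the wild-type and 12.7 to 12.9 CPM in the lamin C-only libraries.

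Opposite changes were as large as many shared ones. Slc10a6, a carrier of sulfated steroids, measured 15.6, 17.6, 14.7 and 11.9 CPM in the wild-type controls, 73.1, 78.1 and 87.1 CPM under ubiquitous progerin, 13.8, 12.6, 8.97 and 14.9 CPM in the lamin C-only controls, and 2.09, 2.59 and 2.23 CPM under VSMC progerin. The ubiquitous progerin libraries lay above and the VSMC progerin libraries below their controls, at 2.41 and -2.44 on the log2 scale. Tac2, a tachykinin precursor, moved by 1.96 and -2.85. In the other direction Galnt18, an enzyme of O-glycan synthesis, moved by -2.31 and 2.08, Hspa12a, a heat shock protein relative, by -2.05 and 1.79, and Serpina1b, a protease inhibitor with near-identical copies, by -3.32 and 2.18.

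At the edge of the rule, C1s1 (0.82 and 1.17) and Pip4k2a (0.79 and 0.56) were the higher genes just inside the ratio of 0.7, and Cd300a (3.14 and 2.20) and Lat2 (3.05 and 2.13) just outside. Among lower genes Lrig1 (-0.64 and -0.91) and Pacsin2 (-0.75 and -0.52) were just inside, and Myh11 (-1.32 and -1.88) and Gstt1 (-0.49 and -0.70) just outside. The values on each side of the limit lay close together.

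Some shared genes lay next to each other among the tested genes along the chromosomes. Of the 597 higher genes 91 (15.2%) had a shared higher neighbour, beside 8.1% of all tested genes, and of the 515 lower genes 53 (10.3%) had a shared lower neighbour, beside 7.06%. These are counts and were not tested. The 50 pairs of higher genes included members of the same gene family, such as the MHC class II genes, the chemokine receptors Ccr1 and Ccr2 on chromosome 9 and the integrins Itgam and Itgax on chromosome 7. Itgax, which encodes CD11c of dendritic cells and macrophages, begins 11055 bases after Itgam ends and rose by 3.85 ± 0.27 and 3.11 ± 0.27. Among the 27 pairs of lower genes Twist1 and Hdac9 lie 87750 bases apart on chromosome 12. Fam118b and Rpusd4 start 59 bases apart on opposite strands of chromosome 9, and they changed by -1.08 and -1.16 and by -0.47 and -0.52.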

How the data were processed

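Polyadenylated RNA of 14 intimal pools was sequenced. Per the submitters' processing notes, reads were trimmed with Trim Galore 0.6.10 and cutadapt 4.1, and STAR 2.7.10b, RSEM 1.2.28, limma (no version given) and the build GRCm38 are named. No source used here states the strand setting or the annotation release. The deposited tables hold estimated counts per gene (22430 genes), which the authors made before deposit and which were rounded here to whole numbers, and log2 normalised values, which the authors deposited and which served as an alternative. RSEM divides reads between similar genes, so values of near-identical copies are uncertain. No column of per-sample values was left unused.

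Counts were filtered with filterByExpr (minimum count 10, total 15, share of libraries 0.7), scaled by TMM and fitted in edgeR 4.0.16 (R 4.3.3) with 1 coefficient a group over all 14 libraries, which share the estimate of the spread (common dispersion 0.0187). The mean effect, each model, the difference of effects and the contrast of the controls were tested by the quasi-likelihood test of edgeR, adjusted after Benjamini and Hochberg over 14269 genes at 0.05. Reported log2 fold changes carry their standard error, and CPM are TMM-scaled with no prior count. In groups of 3 or 4 pools, p-values measure the spread between pools, which may be technical. In simulated counts with the same fold in both models, effects of 1 on the log2 scale were called with the right sign for 48 of 50 changed genes, and 43 met the shared rule, among 13917 genes tested. Of 47 genes with effects of 0.5, 35 were called with the right sign and 5 (10.6%) met the shared rule. In the measured counts 112 shared higher and 323 shared lower genes had a smaller effect under 0.5. The simulation changed few genes and gave every gene the common dispersion, whereas 51.5% of the measured genes were called in the mean effect. Its cutoff after adjustment was therefore stricter, so the 10.6% cannot be set against the measured numbers. Whether that share holds for the measured counts was not tested. Alternatives used limma 3.58.1 and DESeq2 1.42.0.

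The 1112 members and the gene lists were chosen with earlier results of these data known. Genes were named by a rule: Lmna and Apoe, the 12 higher and 12 lower shared genes with the largest smaller effect among those with an average level of at least 2 (log2 CPM) and separate groups, the 5 closest matches a direction, up to 3 shared genes a list, 3 genes for each pattern of opposite signs, and 2 genes a direction on each side of the ratio. Itgax, Csf1r, Mmp12, Mmp3, Snai1, Cdh2, Cav1, Cav2, Met, Yap1, Fosb, Fam118b, Rpusd4, Pappa2, Ccr1 and the families of the closing observations were named after their values were seen. Some genes that the rule names are not reported here. Gene coordinates are on GRCm38 from GENCODE M21, which held 14247 of the tested genes, and promoter windows are from RefSeq.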

Additional observations from a re-analysis of the deposited data

Results flagged for a closer look

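Of 254 checks for a control library far from the others of its group, 11 stood out, where chance gives about 1 in 20. In the wild-type controls, pool 1 had 2.66 CPM of Ccr2 (others 0.833 to 0.976), 3.65 CPM of Cd300a (others 1.70 to 1.85), 135.5 CPM of Arpc1a (others 141.8 to 142.2) and 0 CPM of Fst (others 0.260 to 0.381). Pool 3 of the same group had 5.73 CPM of Akap12 (others 6.66 to 6.86). In the lamin C-only controls, pool 4 had 2.39 CPM of Ccr2 (others 1.00 to 1.06) and 0.95 CPM of Cdh2 (others 0.251 to 0.311). Pool 1 of that group had 248.6 CPM of Col4a3 (others 221.5 to 224.1) and 17.9 CPM of Pip4k2a (others 22.52 to 22.53), pool 2 had 123 CPM of Arpc5 (others 107.4 to 109.5), and pool 3 had 25.3 CPM of Myc (others 31.7 to 32.6).

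The effects differed in size between the models for 10 of the 112 shared genes recomputed for the text, by the quasi-likelihood test of edgeR on the difference, adjusted over all genes. Ubiquitous minus VSMC effects on the log2 scale were 1.24 for Itgam, 1.15 for Mrc1, 1.08 for C1qa, 1.02 for Spi1, 0.88 for Coro1a and 0.56 for Lyn, where the rise was larger under ubiquitous progerin. The value was -0.79 for C4b, whose rise was larger under VSMC progerin. For the lower genes Ereg, Col4a3 and Cavin2 it was 0.64, 0.42 and 0.25, where the fall was larger under VSMC progerin.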

How the results depend on the processing

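The count of shared genes depended on the limit of the ratio: at 0.5 there were 927 higher and 861 lower genes, and at 0.8 there were 402 and 322. Other settings gave 647 and 428 (DESeq2 size factors), 552 and 522 (no filter), 600 and 475 (over 1 CPM in at least 3 libraries), 673 and 442 (DESeq2 Wald test), 616 and 520 (limma-voom), 604 and 489 (deposited log2 values) and 593 and 436 (each model fitted alone). Leaving out each library in turn gave 529 to 628 higher and 387 to 512 lower genes, with 495 to 539 and 352 to 452 of the reported genes kept. The mean effect had 3660 higher and 3666 lower calls with DESeq2 size factors and 3749 and 3737 with the DESeq2 Wald test, so its excess of lower calls (3296 and 4054) depended on the scaling. With each library left out it had 3003 to 3348 higher and 3620 to 4072 lower calls, each model 6863 to 7926 (ubiquitous) and 5041 to 6200 (VSMC) calls, and the difference 5736 to 6336. With the limit held at 0.7, 321 higher and 198 lower genes were kept in all 21 of these fits: other scaling, filters, tools and values, the replicate block, and each library left out. Deviations of the 19 same-number pairs of pools had correlations of -0.0551 to 0.0227, within the -0.117 to 0.0999 of the 54 other pairs. No pair of either kind passed 0.1, so that limit could not separate them, and no pairing by pool number was seen. With the pool number as a replicate block there were 571 and 487 shared genes, with 3093 and 3843 calls of the mean effect. Of 2982 recomputed values of named genes 2977 kept direction and side of the threshold. Apoe under VSMC progerin lost its call without VSMC progerin replicate 2 (-0.23, edgeR adjusted p = 0.0522), as did Myh11 under ubiquitous progerin without ubiquitous progerin replicate 1 (-1.12, edgeR adjusted p = 0.0619). The Lmna effect under ubiquitous progerin, not called in any setting, turned to 0.0033 with DESeq2 size factors and 0.00326 with the DESeq2 Wald test, and ran from -0.0477 to 0.000585 with each library left out, above 0 without wild-type control replicate 4. The median of all genes moved between -0.03 and 0.01. Low counts limit the higher genes: 83 of 597 failed the count filter in the controls alone.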

Other observations

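Families of genes picked after the values were seen are given as values only. Over all genes tested 23.1% were higher and 28.4% lower in the mean effect, with 4.18% shared higher and 3.61% shared lower. Because the values chose these families, their counts cannot be measured against those shares. Of 6 genes of the phagocyte NADPH oxidase all were higher in the mean effect and 5 were shared, among them Ncf4 (3.71 ± 0.37 and 3.63 ± 0.35), the GTPase Rac2 (3.26 ± 0.20 and 2.83 ± 0.20) and the membrane subunit Cyba (0.71 ± 0.09 and 0.61 ± 0.09). Cybb, the catalytic subunit, rose by 4.06 and 2.7 and missed the rule of similar size. Of the 6 chemokine receptor genes picked, 5 were shared higher, including Cxcr4 (3.50 ± 0.31 and 2.58 ± 0.30). The remaining member, Ackr3, an atypical receptor that scavenges chemokine, was lower in both models (-1.97 ± 0.07 and -1.17 ± 0.07) and missed the rule of similar size. Of 9 genes of the Arp2/3 complex, which branches actin filaments, 5 were shared higher with small rises, such as Actr3 (0.52 ± 0.07 and 0.55 ± 0.07) and Arpc5 (0.59 ± 0.06 and 0.57 ± 0.06), and Arpc1a was shared lower (-0.26 ± 0.06 and -0.22 ± 0.06).

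All 7 caveola genes were lower in the mean effect and 4 were shared: Cav1, Cav2, Pacsin2 and Cavin2 (-0.80 ± 0.07 and -1.04 ± 0.07). Cavin1 changed by -0.90 and -0.40 and was not shared. Of 7 genes of the ILK, PINCH and parvin complexes 2 were higher and 5 lower in the mean effect. Ilk and Parva, which link integrins to actin, changed by -0.61 ± 0.07 and -0.60 ± 0.07 and by -0.67 ± 0.06 and -0.61 ± 0.06, while their partner Lims1 rose by 0.42 ± 0.06 and 0.30 ± 0.06. The other PINCH gene, Lims2, was lower (-0.78 and -0.44), and Parvg was called higher under ubiquitous progerin only (1.69 and 0.18), without being shared. Gas6, a ligand of the receptor kinases Axl and Tyro3, changed by -0.86 ± 0.08 and -0.82 ± 0.08, and Tyro3 by -0.66 ± 0.17 and -0.51 ± 0.17. Inhba, an activin subunit, changed by -1.0 ± 0.22 and -1.41 ± 0.22, while the activin antagonist Fst rose by 1.99 ± 0.78 and 1.94 ± 0.71. Fst was near the floor, at 0 to 0.381 CPM in the wild-type and 0.062 to 1.72 CPM in the lamin C-only controls. Among the activin receptors Acvr1b was shared higher (0.63 ± 0.08 and 0.55 ± 0.08), and Acvr2a was called higher under ubiquitous progerin only (0.96 and -0.01). The subunit Inha and the receptor Acvr2b were not called in either model. Of the type IV collagen genes other than Col4a3 and Col4a4, none was shared: Col4a1 had effects of -0.88 and 0.48, Col4a2 of -0.37 and 0.76, Col4a5 of -0.14 and -0.30, and Col4a6 of 0.47 and -0.81.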
